A study of Glycine max with 6 samples.

Results

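Chromatin regions bound by the soybean protein GLYMA.04G093300 were taken here where they lie in close company: regions found in every immunoprecipitated library that have another such region within 2 kb, summit to summit. There were 2904 of these paired regions. They made up 19.4% (95% Wilson interval 18.8 to 20.1) of the 14933 shared regions that met the rule's other conditions, and 4.52% of the 64222 merged regions of any list. The other 12029 shared regions had no such neighbour and are called lone. The members were chosen by measured values, namely the positions of the peaks and the −log10 p that picks the summit of each region, so their number and spacing are given as descriptions with no test.

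The method was ChIP-seq, the sequencing of immunoprecipitated chromatin, in early maturation embryos of the soybean cultivar Williams 82, dissected from seeds of 6 to 7 mm and fixed with 1% formaldehyde. Antibody Ab1 was raised against a peptide at residues 117 to 132 of the protein and antibody Ab2 against one at residues 170 to 180, and each was used on 2 biological replicates. An input of total chromatin, taken before immunoprecipitation, was sequenced for each replicate, and no peak list of the inputs was used here. All groups share cultivar, tissue and stage, and no library lacking the protein or made with an unrelated antibody was among the samples, so the specificity of either antibody was not tested.

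In ChIP-seq, a protein is crosslinked to the DNA it sits on, the chromatin is sheared, and fragments that carry the protein are pulled down and sequenced. A stretch with more fragments than its local background is called a peak, and its summit, the position with most fragments, approximates the place of binding. Proteins that bind DNA often occupy several sites close together in the control region of 1 gene, and such clusters can also span neighbouring genes. Sheared fragments limit how near to each other 2 sites can lie and still be told apart.

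The peak lists held 59261 and 44181 peaks in Ab1 replicates 1 and 2, and 28010 and 21291 peaks in Ab2 replicates 1 and 2. Total reads per library are unknown here. The fragments under a summit were recovered from the deposited values, and their median over paired regions was 44 and 49 in the Ab1 libraries and 23 and 20 in the Ab2 libraries. Of the 64222 merged regions, 15473 held a peak of all 4 lists and 15390 of these lay on the 20 chromosomes. The 457 that were 1500 bp or longer were set aside, which left the 14933 kept regions. A kept region needed all 4 lists, so Ab2 replicate 2, the shortest list, limited the members most: the rule applied without it gave 5675 members, whereas leaving out any other library gave 3079 to 3991.

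Most members came as simple pairs. Consecutive summits at most 2000 bp apart were joined into runs, which gave 1347 runs. Of these, 1174 held 2 regions, 148 held 3, 17 held 4, 5 held 5, 2 held 6 and 1 held 7. Pairs therefore accounted for 2348 members (80.9%), and runs of 3 or more for 556 members (19.1%, 17.8 to 20.6) in 173 runs. The runs of 3 had a median span of 2440.5 bp from first to last summit and reached 3593 bp, and the 25 runs of 4 or more had a median span of 4165 bp and reached 8436 bp. Within the 148 runs of 3, a longer left gap went with a slightly shorter right gap (Spearman rho −0.15 across runs, given without a p).

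The distance from a member to its nearest kept summit ran from 369 to 2000 bp, with a median of 1244 bp and quartiles of 920 and 1583 bp. Over all kept regions the median was 8264 bp, and over lone regions it was 11823 bp. Only 32 members (1.10%) had a neighbour within 500 bp, and 383 (13.2%) had it at 500 to 750 bp. The range from 1000 to 1250 bp held 564 members (19.4%), the most of any 250-bp range.

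Counted over all 14913 gaps between consecutive kept summits, 1557 were at most 2000 bp. Gaps of 200 to 400 bp numbered 3 and those of 400 to 600 bp numbered 54. The counts then climbed to 191 at 600 to 800 bp and 268 at 1200 to 1400 bp, the fullest bin of 200 bp, and came to 177 at 1800 to 2000 bp. The bin just past the bound held 167, so the spacing passed smoothly through 2000 bp. From 1000 bp on, the next summit came less often per base searched from each broad range of distance to the next. The rate was 0.0796 per kb between 1000 and 2000 bp and 0.0497 between 2000 and 4000 bp. It was 0.0350 between 4000 and 10000 bp, 0.0286 between 10000 and 20000 bp and 0.0226 between 20000 and 50000 bp. Inside the first range the fall was not steady. Of gaps over 1000 bp, 1.65% ended by 1200 bp, and of those over 1200 bp, 1.88% ended by 1400 bp. Gaps below 600 bp were few, and overlapping intervals had been merged. These rates describe the map as a whole and carry its uneven density along the chromosomes.

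**Figure D1:**
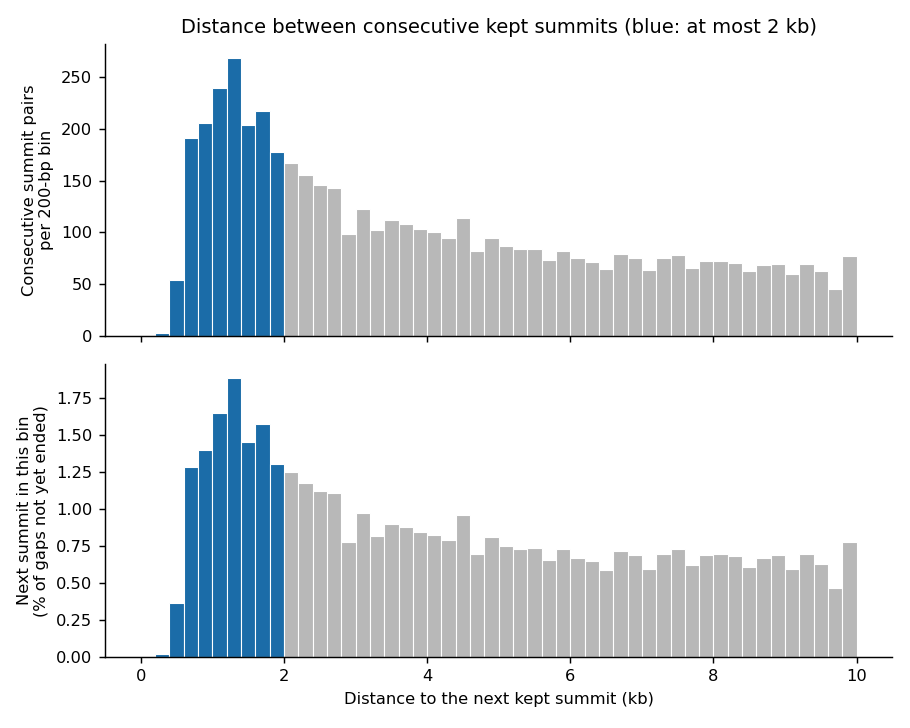
Distances between consecutive kept summits in bins of 200 bp up to 10000 bp, as the number of gaps (top) and as the percentage of gaps not yet ended that end in the bin (bottom), with gaps of at most 2 kb in blue. The counts are near 0 below 400 bp, are highest at 268 for 1200 to 1400 bp, and decline without a step at 2 kb.

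The scarcity of short gaps has to be read beside how regions were built. Overlapping intervals were merged, and paired regions had a median length of 619.5 bp, so summits whose intervals touched the same stretch fell into 1 region. In the single lists, where intervals were shorter, the fullest bin lay at shorter distances. It was 600 to 800 bp in Ab1 replicates 1 and 2, whose intervals had median lengths of 358 and 309 bp, and 400 to 600 bp in Ab2 replicates 1 and 2, at 257 and 226 bp. Gaps of at most 600 bp made up 5.53, 6.34, 6.53 and 6.78% of all gaps in the 4 lists in the same order, against 0.382% over the kept regions. A maximum at 1200 to 1400 bp was thus seen in the merged regions of all 4 lists and in none of the 4 single lists.

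Some regions held several peaks of 1 list inside them. In both Ab2 libraries at once this held for 108 paired regions (3.72%) and for 3.13% of lone regions, 484 kept regions in all. The median step between neighbouring summits of 1 Ab2 list inside kept regions was 432 bp (2596 steps). In both Ab1 libraries it held for 18 paired regions (0.620%) and for 0.557% of lone regions, 85 in all, and the median step inside kept regions was 514 bp (1344 steps). Summits closer than the rule can show thus occurred inside some members.

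Among the 1174 pairs the summits lay a median of 1264.5 bp apart, with quartiles of 947.5 and 1603.75 bp. The intervals themselves were separated by a median of 580 bp, with quartiles of 270.75 and 921.75 bp and a minimum of 2 bp. In 90 pairs (7.67%) less than 100 bp lay between the intervals, and in 665 (56.6%) more than 500 bp did. The distance measured with each library's own summits had a median of 1270.5 and 1270 bp in the Ab1 libraries and 1268.5 and 1266 bp in the Ab2 libraries. For single pairs the SD over the 4 libraries had a median of 61.3 bp and a 90th percentile of 201 bp. By the summits of every library, 1109 pairs (94.5%) stayed within 2000 bp, and in 394 (33.6%) the 4 distances lay within 100 bp of each other.

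The 3 closest pairs, picked for the distance between their strongest peaks, differed in how far the libraries agreed on that distance. The shortest distance was on chromosome 1, between the regions from 5058869 to 5059268 and from 5059319 to 5060104. It was 369 bp in Ab1 replicate 1, but 810 bp in Ab1 replicate 2 and 851 and 885 bp in Ab2 replicates 1 and 2. On chromosome 16, the regions from 36143131 to 36143703 and from 36143776 to 36144843 were 395 and 439 bp apart with Ab1 and 850 and 557 bp with Ab2. On chromosome 8, those from 1758849 to 1759366 and from 1759463 to 1760036 were 502 and 472 bp apart with Ab1 and 559 and 535 bp with Ab2, and by the strongest peak of each region 430 bp. The SD over libraries was 242, 205 and 38.0 bp for the 3 pairs in that order, against the median of 61.3 bp over all pairs. Coordinates follow the deposited files, counted from 1, on a genome build not given in the sources used here. For that reason no genes or annotated features are assigned to regions, and no sequence is shown.

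At the bound itself, the regions on chromosome 17 from 13297968 to 13298453 and from 13299762 to 13300284 were members at 2000 bp. Their fold enrichments were 6.42 and 5.56 with Ab1 and 6.90 and 6.07 with Ab2 for the left region, and 4.79 and 6.63 with Ab1 and 4.72 and 5.70 with Ab2 for the right one. Fold enrichment here and throughout is the authors' peak-caller value, the height at the summit over its local background, and it was compared within lists and averaged over libraries only as a ratio of partners or to describe and rank regions. A region on chromosome 1 from 1719710 to 1720404 was a member at 1998 bp. Just outside, 2 regions on chromosome 10, from 49940235 to 49940977 and from 49942298 to 49943071, lay 2001 bp apart, as did a region on chromosome 11 from 33326480 to 33327614 from its neighbour. The left region on chromosome 10, at 15.4 and 13.6 with Ab1 and 10.9 and 15.4 with Ab2, was stronger than all 3 members just named in each of the 4 libraries, if narrowly in Ab1 replicate 1, where the region on chromosome 1 had 15.2. Within 100 bp of the bound, 161 members lay inside and 158 lone regions outside.

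The longest run lay on chromosome 8 from 45730305 to 45739161, where 7 regions followed each other over 8093 bp. Their gaps were 1807, 1477, 1405, 1378, 572 and 1454 bp. The fifth region, from 45735942 to 45736802, reached folds of 13.1 and 9.32 with Ab1, then 6.67 and 9.31 with Ab2, and led the run in 3 libraries. The first region, from 45730305 to 45731029, reached 12.6 and 5.30 with Ab1, then 8.95 and 6.57 with Ab2. The second, from 45732012 to 45732535, reached 5.09 and 5.29 with Ab1, then 4.85 and 5.22 with Ab2. No region of this run stood highest in every library: the first led in Ab2 replicate 1.

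A run of 6 on chromosome 17 from 1031491 to 1038253 spanned 6088 bp, with even gaps of 1257, 1363, 1307, 1174 and 987 bp. The fifth region, from 1036417 to 1037386, showed folds of 12.3 and 9.54 with Ab1, then 10.6 and 6.09 with Ab2. It led its run in Ab1 replicates 1 and 2 and Ab2 replicate 1, while in Ab2 replicate 2 the first region, from 1031491 to 1032413, had 6.90. That first region had 6.29 and 5.50 with Ab1 and 6.87 with Ab2 replicate 1.

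The other run of 6 lay on chromosome 17 from 12522717 to 12532149 and spanned 8436 bp, the widest of all runs. Its gaps were 1310, 1981, 1820, 1871 and 1454 bp. The fourth region of the run, from 12527520 to 12528831, stood out with folds of 22.0 and 15.5 with Ab1 and 15.6 and 14.9 with Ab2. The last region, from 12531181 to 12532149, came next in Ab1 replicate 1 and in both Ab2 libraries, with 12.1 and 7.54 with Ab1 and 8.08 and 7.39 with Ab2. In Ab1 replicate 2 the first region, from 12522717 to 12523652, came next at 8.71. The fourth region was thus above the other 5 in all 4 libraries.

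**Figure D2:**
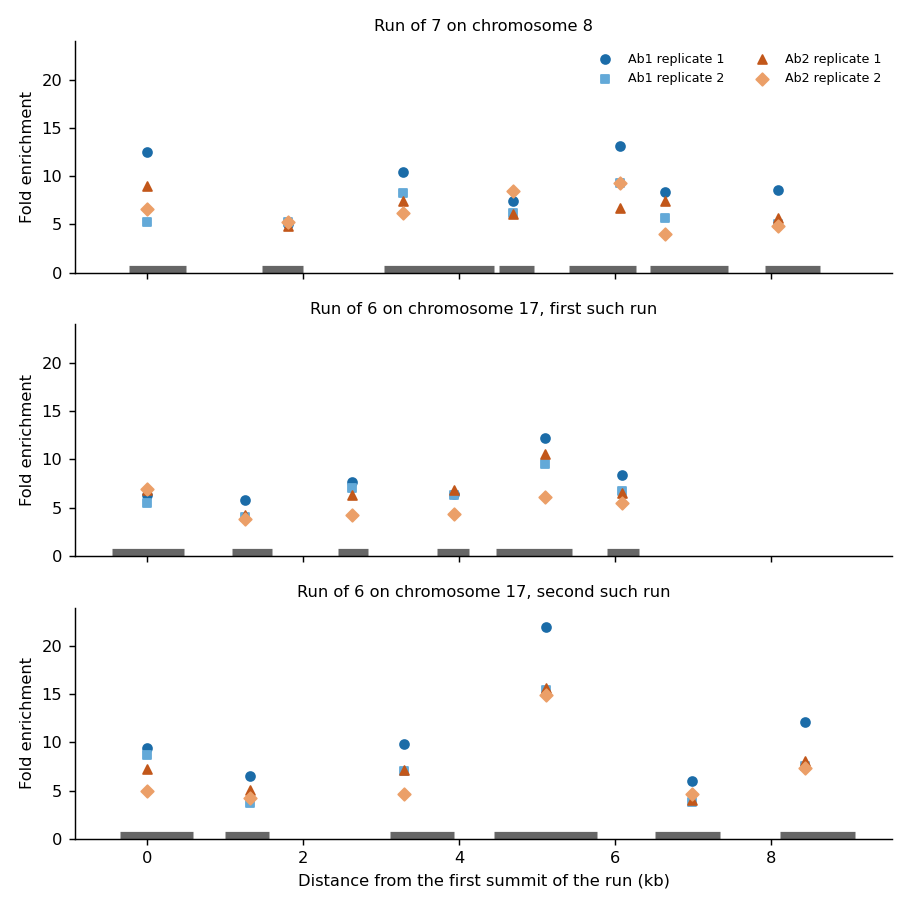
Fold enrichment (linear axis) of each region in the 3 longest runs against the distance of its summit from the first summit of the run, with 1 marker per library and grey bars for the extent of each region. In the second run of 6 on chromosome 17, the fourth region lies at 14.9 to 22.0 in the 4 libraries, above every other region of that run.

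The folds of inner and end regions of a run lay close together. In runs of 3 or more, the 210 inner regions had median folds of 7.28 and 5.77 with Ab1 and 5.85 and 5.48 with Ab2. The 346 end regions had 7.43 and 5.89 with Ab1 and 5.81 and 5.41 with Ab2. Inner regions were lower in both Ab1 libraries and higher in both Ab2 libraries, by small amounts in each. Regions in runs of 4 or more were the longest, with a median length of 700.5 bp against 615 bp in pairs.

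Partners were almost unrelated in strength. Over the 1174 pairs, Spearman's rho between the folds of the left and the right partner was 0.0297 and 0.0551 in the Ab1 libraries and 0.0416 and 0.0307 in the Ab2 libraries, a mean of 0.0393 ± 0.0119 (SD over 4 libraries). With the rule applied without Ab2 replicate 1 the mean was 0.0662. With recovered fragments in place of fold the mean was 0.0251. For consecutive kept regions over 2000 bp apart the mean was 0.0030 over 13356 of them, and it was 0.0327 at 2000 to 5000 bp and −0.0032 at 5000 to 20000 bp. These correlations run across regions, which share library, depth and input, and are given without a p. The local background, recovered from the same values, was more alike between partners, at 0.126 and 0.115 with Ab1 and 0.110 and 0.122 with Ab2, against a mean of 0.0123 over 2000 bp. The background is taken over windows that can take in both partners, and the share of this in the rho of the fold was not tested. Region length was hardly shared either, with a rho of 0.0431.

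**Figure D3:**
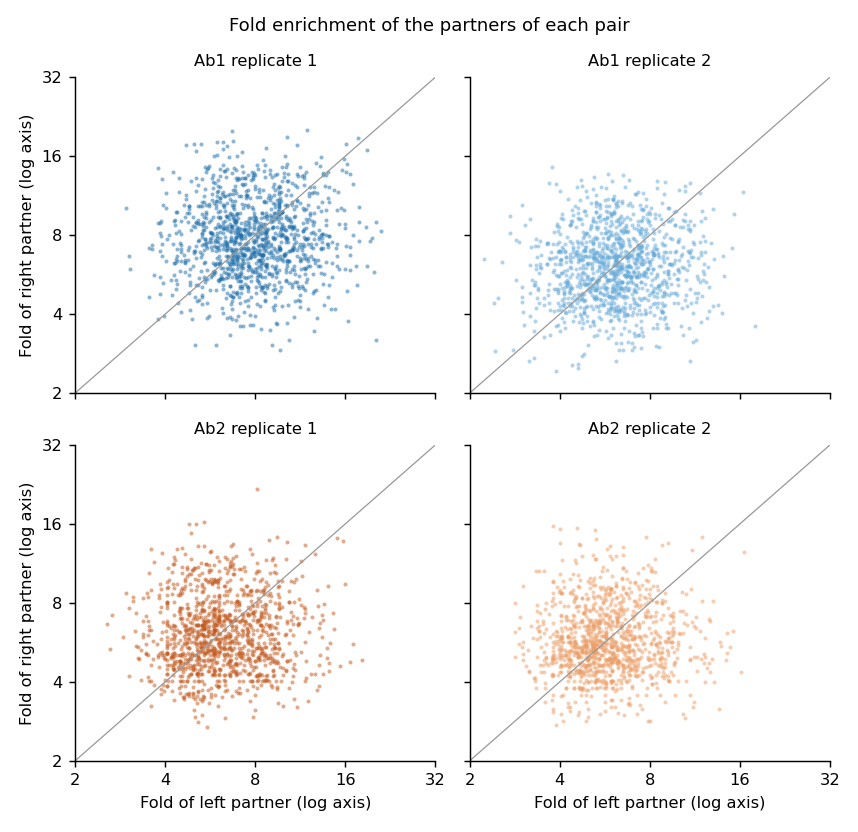
Fold enrichment of the left partner against that of the right partner for 1174 pairs in each of the 4 libraries, on log axes with the line of equality. The points form a round cloud in each library, with Spearman's rho of 0.0297 to 0.0551.

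The share of pairs that joined 2 strong regions lay between the shares of more distant neighbours given below. Both partners were among the strongest 25% of kept regions in 91 pairs (7.75%, 6.36 to 9.42), a single partner was in 448 (38.2%) and neither was in 635 (54.1%). Both were in that class for 6.27% of consecutive regions over 2000 bp apart and for 9.12% of those 2000 to 5000 bp apart. Neither was in it for 56.6% and 53.2% of them, in the same order. The balance between antibodies was not shared by partners: the log2 ratio of Ab1 to Ab2 fold correlated at r = 0.0155 between them, across the 1174 pairs.

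The stronger partner of a pair was the same in all 4 libraries in 552 pairs (47.0%, 44.2 to 49.9), and among consecutive kept regions over 2000 bp apart the share was 47.2%. The median ratio of the stronger to the weaker partner was 1.27, with quartiles of 1.11 and 1.52, and it was also 1.27 for the more distant neighbours. A mean ratio of at least 2 occurred in 87 pairs (7.41%), against 7.27% for the more distant neighbours. In 579 pairs (49.3%) the mean log2 ratio was smaller than its SD over the 4 libraries, so the partners of those pairs were not distinguishable in strength. Both Ab1 libraries put 1 partner higher and both Ab2 libraries the other in 61 pairs (5.20%), against 4.47% beyond 2000 bp. Each of these shares lay within 1 percentage point of the background, which is no result about close partners.

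The partner ratio, taken as left over right and so with its direction, was correlated between libraries. Its log2 value correlated at r = 0.739 and 0.692 between libraries of the same replicate number, at 0.624 and 0.540 between replicates of 1 antibody, and at 0.555 and 0.567 between libraries that share neither, across 1174 pairs. These values cover close pairs only. They were not computed for neighbours beyond 2000 bp, so they show no trait particular to close pairs. Libraries of 1 replicate number come from the same biological replicate by the design text and may share its input. The part of this in their r was not tested. In 114 pairs (9.71%, against 9.56% beyond 2000 bp) the replicate numbers put different partners higher in both antibodies.

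The strongest pair, ranked by its weaker partner, was on chromosome 16. Its left region, from 37089491 to 37090669, showed folds of 17.7 and 16.3 with Ab1 and 15.7 and 16.4 with Ab2. Its right region, from 37091058 to 37091814, reached 18.7 and 11.6 with Ab1, then 13.7 and 12.5 with Ab2. The left partner was higher in 3 of the 4 libraries, with a mean log2 ratio of 0.25 ± 0.25 (SD, n = 4), so the partners were not distinguishable within the spread.

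On chromosome 15, the regions from 12944773 to 12945778 and from 12946531 to 12947285 were nearly equal, 1849 bp apart. The left had 19.0 and 10.9 with Ab1 and 15.0 and 11.9 with Ab2, and the right had 16.9 and 12.6 with Ab1 and 14.1 and 14.3 with Ab2. The left was higher in both replicate 1 libraries and the right in both replicate 2 libraries.

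The other strong pairs lay on chromosomes 20, 19 and 13. On chromosome 20, the region from 2121081 to 2121747 reached a mean of 12.9 ± 4.05 with Ab1, then 9.73 ± 2.78 with Ab2, and its partner from 2122409 to 2123355 had 13.7 ± 2.61 and 13.8 ± 0.734 (SD, n = 2 each). On chromosome 19, the region from 45041643 to 45042231 reached 11.8 ± 0.180 with Ab1, then 10.1 ± 1.37 with Ab2, and its partner from 45042301 to 45042884 had 11.1 ± 1.77 and 12.3 ± 0.648. Here Ab1 gave the left partner the higher mean, by less than the SD of its partner, and its replicates differed in order. Ab1 replicate 1 had 11.7 left and 12.4 right, and Ab1 replicate 2 had 11.9 left and 9.90 right. Ab2 gave the right partner the higher fold in both replicates, with means further apart than either SD. On chromosome 13, the region from 43101944 to 43102741 reached 12.5 ± 5.13 with Ab1, then 9.50 ± 2.81 with Ab2, and its partner from 43103685 to 43104573 had 13.3 ± 6.39 and 9.77 ± 0.541. None of these 5 pairs had a mean log2 ratio larger than its SD. Among all 1174 pairs, 49.3% had a mean log2 ratio smaller than its SD. The 5 were picked for a strong weaker partner, which favours partners of like strength, so their ratios are given with no test.

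The most unequal pairs kept their order in every library. On chromosome 18, the region from 6618969 to 6619821 had folds of 19.9 and 18.0 with Ab1 and 18.2 and 16.1 with Ab2. Its partner from 6620309 to 6620642, 1048 bp away, had 5.80 and 3.60 with Ab1 and 4.82 and 4.34 with Ab2. The stronger was 3.94 times the weaker, with a mean log2 ratio of 1.98 ± 0.24 (SD, n = 4).

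On chromosome 19, the region from 45140674 to 45141830 reached 20.2 and 11.9 with Ab1, then 12.7 and 15.2 with Ab2, and its partner from 45143038 to 45143996 reached 3.18 and 3.74 with Ab1, then 4.29 and 6.27 with Ab2, a ratio of 3.46. Also on chromosome 19, the right partner was the stronger: the region from 44468996 to 44470071 reached 17.6 and 12.3 with Ab1, then 12.4 and 15.7 with Ab2, while that from 44467963 to 44468473 reached 4.71 and 4.74 with Ab1, then 3.90 and 3.80 with Ab2, a ratio of 3.36. In each of these 3 pairs the same partner had the higher fold in every library, with a single value per partner in each library. These pairs were picked for their ratio, which is therefore given with no test.

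**Figure D4:**
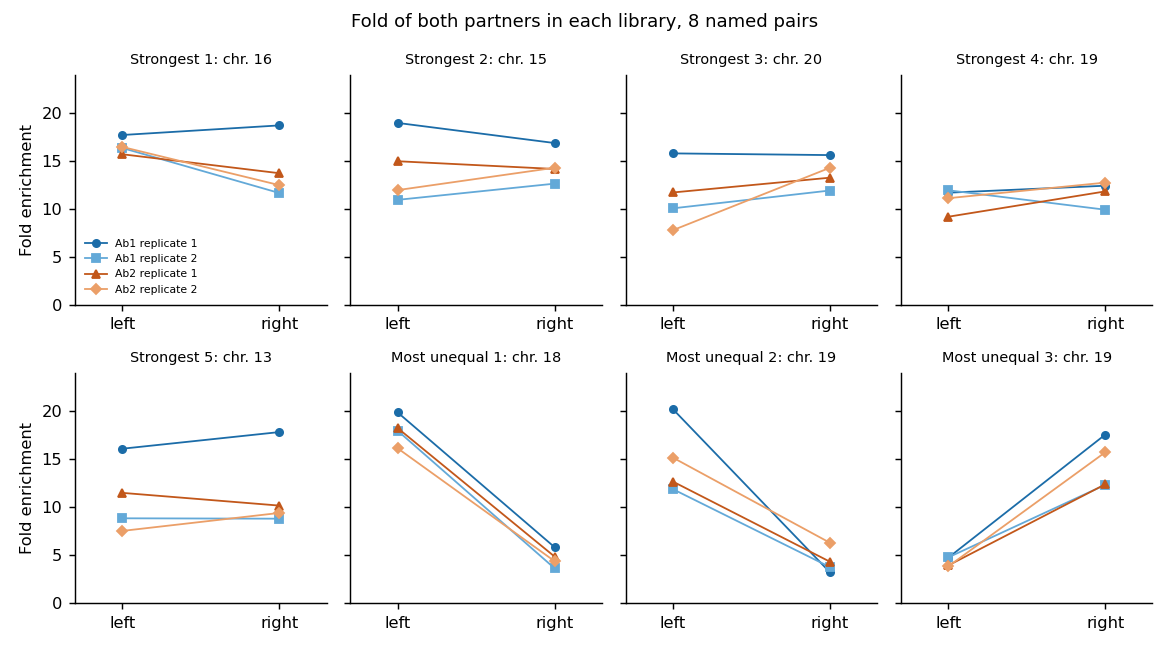
Fold enrichment (linear axis) of the left and right partner in each library for the 5 strongest pairs and the 3 most unequal pairs, with 1 line per library. The lines of the strongest pairs cross or stay near level, and those of the most unequal pairs all slope the same way, by ratios of 3.36 to 3.94. Both sets were picked by their folds.

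Paired regions were close to lone regions in strength, although both classes had to reach the peak threshold in all 4 lists. The median fold of paired regions was 7.59 in Ab1 replicate 1, against 7.57 in lone regions. In Ab1 replicate 2 it was 6.04, against 5.89 in lone regions. In Ab2 replicates 1 and 2 it was 5.96 and 5.52 in paired regions, against 5.87 and 5.46 in lone regions. Paired regions had the higher median in all 4 libraries, by 0.0238 to 0.155. They were also somewhat longer, with a median of 619.5 bp against 586 bp, and 26.6% of them (25.0 to 28.2) were among the strongest 25% of kept regions, against 24.6% of lone regions (23.9 to 25.4). These measures come from the peaks that the rule used and are not tested.

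Regions found in only some of the lists were also counted near members. A region of 1 to 3 lists had its summit within 2000 bp of 41.5% of paired summits (39.7 to 43.3), against 45.3% of lone summits (44.4 to 46.2). Regions of both Ab1 lists and neither Ab2 list stood near 12.2% of paired and 14.2% of lone summits. The window around a paired summit also holds the partner's interval, which leaves less room for other regions, and the part of this in the difference was not tested. A shared region of 1500 bp or more lay near 0.551% of paired and 0.590% of lone regions.

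One measure did not enter the choice of regions, namely whether a library left out of the rule found them too. Regions, summits and pairing were rebuilt from 3 lists, and the overlap with a peak of the remaining one was counted. Paired regions were recovered in 99.94% of cases by Ab1 replicate 1, against 99.79% of lone regions. For Ab1 replicate 2 the shares were 99.2% of paired and 98.9% of lone regions. For Ab2 replicate 1 they were 84.7% and 83.4%, and for Ab2 replicate 2 they were 70.1% and 66.7%, in the same order. Recovery was higher for paired regions in 4 of 4 libraries, by 1.25 ± 1.48 percentage points (SD, n = 4; exact two-sided sign-flip permutation test p = 0.125, the smallest that 4 libraries allow). The design thus cannot reach a p of 0.05. The rebuilds share lists with each other, so the 4 differences are not independent. A longer region also offers more room for overlap. Under the full rule, paired regions had a median length of 619.5 bp against 586 bp in lone regions, and the part of length was not tested.

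Ab2 replicate 2 carried most of that difference: without it the mean was 0.554 points. Averaged within 4 classes of equal size by fold, the difference over all 4 libraries was 0.540 points. The part of strength in the difference was not tested. With a bound of 1000 bp the mean turned to −0.692 points (exact permutation p = 0.5). When Ab2 replicate 2 was left out, both partners of a pair were recovered in 1034 of 2140 pairs (48.3%), 1 in 897 (41.9%) and neither in 209 (9.77%). For Ab2 replicate 1, both were recovered in 1123 of 1560 pairs (72.0%), 1 in 393 and neither in 44. If partners were recovered independently, both would be in 48.0% of pairs for Ab2 replicate 2 and 71.5% for Ab2 replicate 1. Each observed share was close to that value.

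Paired regions followed the general map and lay mostly toward the chromosome ends. The outermost 20% at either end held 72.7% of paired regions (71.0 to 74.3), against 69.9% of lone regions (69.1 to 70.7), where an even spread would put 40%. Of 10 equal parts of the chromosomes, the outermost held 21.6% and 21.0% of paired regions, and 20.3% and 20.9% of lone regions. The sixth held 2.13% of paired and 2.07% of lone regions. The seventh held 2.13% of paired and 3.32% of lone regions, and with 13.4% its kept regions had the lowest share paired. Of kept regions, 20.1% were paired in the outer parts (19.3 to 20.8) and 18.0% in the interior (16.9 to 19.1). The end of a chromosome was set at its last peak in any list, and mappability and gene density were not analysed here.

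Local density went along with pairing. In 1-Mb bins with 1 to 5 kept regions, 11.3% were paired (9.29 to 13.6), and in bins with over 40 kept regions 23.4% were (22.3 to 24.7), with 13.8, 17.0, 18.5 and 19.3% in the classes between. In the densest class the shares in the outer and inner parts of chromosomes were 23.6% and 22.3%, and in the sparsest 13.3% and 11.1%. The inner parts had the higher share in bins with 31 to 40 kept regions, at 18.2% in the outer and 22.9% in the inner parts, and in bins with 21 to 30, at 17.9% and 20.2%. Density counts the same regions whose spacing defines pairing, so a rise of the share with density is built into these measures and is given as a description.

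**Figure D5:**
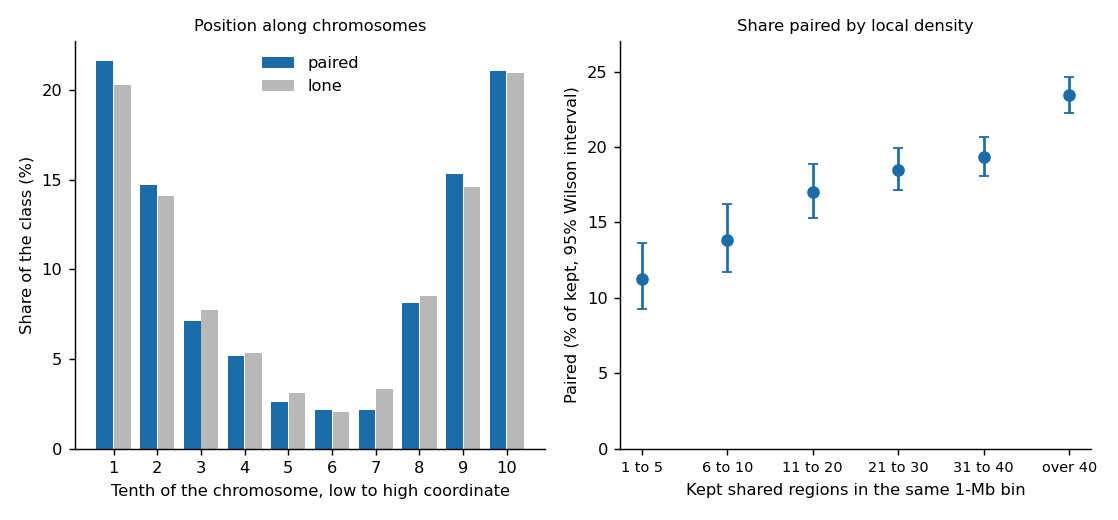
Left, the percentage of paired and of lone regions in each of 10 equal parts of the chromosomes from low to high coordinate. Right, the percentage of kept regions that are paired by the number of kept regions in the same 1-Mb bin, with 95% Wilson intervals, which climbs from 11.3% to 23.4%.

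By chromosome, the share paired was lowest on chromosome 3, with 100 of 644 kept regions (15.5%, 12.9 to 18.5), and highest on chromosome 5, with 168 of 738 (22.8%, 19.9 to 25.9). Chromosome 13 held the most members, 249 of 1131 kept regions (22.0%), and chromosome 14 the fewest, 93 of 555 (16.8%). Chromosomes 8 and 13 each had 16 runs of 3 or more, and chromosomes 12 and 15 had 4 each. Over the 20 chromosomes the share paired and the number of kept regions per Mb had a Spearman rho of 0.39, both being counts of the same regions. Members fell into 489 of the 1-Mb bins. The bin from 1 to 2 Mb on chromosome 16 held 30 paired regions among 60 kept, in 13 runs, the most of any bin, and the next bin on that chromosome, from 2 to 3 Mb, held 19 of 43. On chromosome 17, the bin from 5 to 6 Mb held 20 of 56.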

How the data were processed

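One peak list per immunoprecipitated library was used, in narrowPeak format. Bowtie 0.12.7 and MACS2, without a version, are named in the submitters' processing notes, and a genome build was not given in the sources used here. Fold enrichment, a ratio to local background, was deposited by the authors from their peak caller, as were −log10 p-values and −log10 q-values. All deposited q-values were 0.01 or less, the threshold carried in the peak names. The score deposited by the authors entered no result, and the deposited offset gave the summit. Peak names of Ab1 replicate 2 carry an unexplained tag, "cat".

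Intervals of the 4 lists sharing at least 1 base were merged. A region's summit and its fold in each library come from the peak with the highest −log10 p, over all lists and within that library. Fragments and background at summits were recovered from fold and −log10 p, by inverting a Poisson upper tail and a ratio in which 1 is added to both fragments and background. They were whole within 0.01 for 100% of peaks in 3 lists, and in Ab1 replicate 2 for 2.08%, and for 99.9955% after division by a scale of 0.881. Shares carry 95% Wilson intervals, which treat regions as independent and cover counting error only. Partner statistics use runs of exactly 2.

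The members and measures were chosen with earlier results of these data known. Named regions are the 3 longest runs, the 3 closest pairs, the 5 strongest pairs by their weaker partner, the 3 with the largest mean ratio, and 3 regions on either side of the bound. Replicate numbers pair the libraries, since the design text gives each biological replicate both antibodies. Partner ratios also correlated best within a number, which is a result of these data and no ground for the pairing. The procedure was tested on simulated data for membership, runs, likeness of partners and recovered fragments. Close sites there had a fixed spacing under the bound and never merged. The effect of merging on short gaps was thus not tried. The alternatives tried were lists of equal length, a −log10 q threshold of 5, mean summits, long regions kept, bounds of 1000 and 3000 bp, each library left out in turn, every consecutive pair, the highest fold in a region, and the replicate block. Python 3.11.15, numpy 2.4.6, pandas 2.3.3 and scipy 1.17.1 were used.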

Additional observations from a re-analysis of the deposited data

Results flagged for a closer look

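In 61 pairs both Ab1 libraries gave the higher fold to 1 partner and both Ab2 libraries to the other, which is 5.20% of pairs, against 4.47% of consecutive kept regions over 2000 bp apart. The difference between antibodies was not tested in any of these pairs.

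Scaffolds outside the chromosomes were not part of the comparisons. Of 83 shared regions on them, 8 had another within 2 kb, which is 9.64% (4.97 to 17.9, Wilson), against 19.9% on chromosomes when regions of any length are counted. The limits that scaffold length puts on finding a neighbour were not analysed here.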

How the results depend on the processing

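Of 96 alternatives, 58 left the result on its side or within its bounds, 37 moved it and 1 reversed it. The bounds were its spread or, for the number of members, a set factor. Member counts from 2926 to 4090, against 2904, were thus among the 58. Of the 58, 8 concern the difference in recovery, whose test could not pass a threshold of 0.05. The outer 10%, recovered fragments, both orders of partners and the mean over classes of fold were chosen after seeing the data. A −log10 q of at least 5 gave 1850 members, 15.9% paired, a median distance of 1266.5 bp and 14.4% in runs of 3 or more. Lists of equal length gave 1765, 15.7%, 1275 bp, 13.4% and a partner ratio of 1.24. Both settings leave fewer peaks. Mean summits gave a median distance of 1249.62 bp, and keeping regions of 1500 bp or more gave 1258 bp. A bound of 1000 bp gave 892 members, 5.97% paired, 4.48% in runs of 3 or more, a ratio of 1.29 and the reversed difference in recovery of −0.692 points (exact permutation p = 0.5), and the cause was not tested. A bound of 3000 bp gave 27.4% paired, a share that cannot fall as the bound widens. It gave 27.9% of members in runs of 3 or more. The outer 10% at either end held 42.7%. Recovered fragments gave a rho of 0.0251.

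Leaving out 1 library gave 3079 to 5675 members, 20.2 to 25.7% paired, medians of 1159 to 1238 bp, 19.9 to 24.6% in runs of 3 or more, a rho of 0.0423 to 0.0662 and a ratio of 1.27 to 1.31. It gave the same stronger partner in 53.9 to 57.3% of pairs, and 72.8 to 73.0% of members in the outer parts. The order of partners then had to hold in only 3 libraries, and over rebuilt pairs. The part of either in the share of pairs was not tested. The difference in recovery was 0.554 to 1.61 points. With the replicate block it was 1.25 points (exact sign-flip p = 0.5, the smallest 2 numbers allow). The block leaves the mean as it is by its arithmetic, and neither test could reach 0.05, so this says nothing about stability. Median summits of members held 20 to 49 fragments, and how depth bears on weaker regions was not tested.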
